A study of Mus musculus with 8 samples.

Results

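The Wnt ligands, receptors and antagonists of the mouse cornea were compared between a dry eye model and controls. The members are the rows of the gene table whose symbol starts with Wnt, Fzd, Sfrp, Dkk, Rspo or Lgr followed by a digit, together with 15 named co-receptors, antagonists, ubiquitin ligases and downstream components. The table held 44 such genes among 13437. Annotation of protein-coding genes (GENCODE M21) has 59 symbols that meet the rule. Of these, 15 symbols, among them Wnt1, Wnt7a, Wnt16, Fzd3, Rspo2 and Lef1, had no row and are not analysed here. RNA came from corneas of female C57BL/6 mice aged 6 to 8 weeks. In the model group, both eyes were given BAC at 0.2%, in a volume of 5 µl and 2 times a day, for 7 days. BAC is the usual abbreviation of benzalkonium chloride, a preservative of eye drops, which the labels do not spell out. Controls received PBS on both eyes, and both groups were sampled on day 7, with 4 samples each. Whether a sample is 1 eye, 1 animal or a pool is not given in the labels, and p-values therefore measure only the spread between these samples. The labels name no engineered allele.

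Wnt proteins are secreted lipid-modified ligands that bind a frizzled receptor and, in the best known branch, the co-receptor Lrp5 or Lrp6. That binding halts the complex built on axin that marks β-catenin for destruction, and β-catenin then works with TCF and LEF proteins on target genes. Other branches run through Ror2, Ryk and planar polarity proteins. Secreted frizzled-related proteins and Wif1 hold ligands outside the cell, whereas Dkk1 and Dkk2 act on the co-receptors with the help of Kremen1. R-spondins and their Lgr receptors keep the ligases Rnf43 and Znrf3 from removing frizzleds from the surface. In the mouse eye, loss of the antagonist Dkk2 is known to turn the corneal surface skin-like.

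The promoters of the 4 members below are shown because these genes carry the ligand and frizzled changes reported here, Wnt4 and Wnt3a as ligands that fell, Fzd5 as a frizzled that fell and Fzd1 as a frizzled that rose. Each is the 250 bases before the RefSeq start on GRCm38.p6, read on the gene's strand, with CG dinucleotides in capitals. They lie at chr4:137277385-137277634 (Wnt4, plus strand), chr11:59290752-59291001 (Wnt3a, minus strand), chr1:64737751-64738000 (Fzd5, minus strand) and chr5:4758217-4758466 (Fzd1, minus strand). RefSeq starts can differ from the gene boundaries of the expression data. The Wnt4 window runs past that gene's start at 137277489, and the Fzd1 window lies apart from that gene's boundary at 4758035.
Wnt4: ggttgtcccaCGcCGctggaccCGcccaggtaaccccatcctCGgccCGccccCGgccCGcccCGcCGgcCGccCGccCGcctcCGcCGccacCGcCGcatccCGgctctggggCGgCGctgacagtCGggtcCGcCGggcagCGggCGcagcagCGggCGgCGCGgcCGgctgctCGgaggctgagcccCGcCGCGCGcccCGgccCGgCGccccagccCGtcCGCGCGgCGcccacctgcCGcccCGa
Wnt3a: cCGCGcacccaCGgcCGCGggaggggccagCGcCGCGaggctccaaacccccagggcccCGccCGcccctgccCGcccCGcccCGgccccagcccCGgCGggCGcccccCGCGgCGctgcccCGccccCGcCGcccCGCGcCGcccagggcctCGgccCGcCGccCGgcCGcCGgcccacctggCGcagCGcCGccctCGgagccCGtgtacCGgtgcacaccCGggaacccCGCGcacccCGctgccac
Fzd5: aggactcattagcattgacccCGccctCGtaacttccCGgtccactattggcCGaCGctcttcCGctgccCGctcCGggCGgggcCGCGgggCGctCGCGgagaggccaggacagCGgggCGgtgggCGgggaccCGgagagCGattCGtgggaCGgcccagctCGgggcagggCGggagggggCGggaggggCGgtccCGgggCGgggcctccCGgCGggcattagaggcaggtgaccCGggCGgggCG
Fzd1: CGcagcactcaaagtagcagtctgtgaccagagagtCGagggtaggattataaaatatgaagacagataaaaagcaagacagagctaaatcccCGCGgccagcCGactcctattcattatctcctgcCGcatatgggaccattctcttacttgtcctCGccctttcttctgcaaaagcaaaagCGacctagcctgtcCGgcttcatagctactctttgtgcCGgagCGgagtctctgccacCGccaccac
The Wnt4 window held 44 CG dinucleotides at 85.2% G and C, and the Wnt3a window held 41 at 87.6%. Fzd5 had 32 CG dinucleotides at 76.4%, and Fzd1 had 12 at 51.2%. Over the 32851 RefSeq entries of this length the median was 6 CG dinucleotides and 52.4% G and C. The Wnt4, Wnt3a and Fzd5 windows are thus richer in CG than most entries, and Fzd1 lies nearer the middle. These 4 genes were picked, and a link between CG content and direction of change was not tested. The TCF motif CTTTGAA or CTTTGAT, searched on both strands, was in none of the 4 windows and in 7.48% of all entries. Of the 44 members 28 had an entry, too few for a comparison of the whole set.

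The files hold FPKM (fragments scaled to gene length and to the fragments sequenced) and no counts, so depth is unknown. Summed FPKM ran from 268629 to 283538 per sample. Samples of 1 group correlated at 0.976 to 0.986 across genes, and samples of different groups at 0.769 to 0.824. Marker lists moved with the groups. All 5 measured corneal epithelial markers (Krt12, Aldh3a1, Krt5, Tkt, Pax6) were lower with BAC, their sum being 2083 to 2813 FPKM against 21166 to 23073. Other epithelial lists went another way: all 4 measured conjunctival markers were higher, summing to 2576 to 3500 FPKM against 998.3 to 1399. Of 5 limbal and basal markers 3 were higher (Krt14, Ifitm3, Gpha2) and 2 lower (Krt15, Trp63), with a sum of 3464 to 4235 FPKM against 1553 to 2103. Of 6 keratocyte markers Lum was higher, Kera, Aldh1a1 and Angptl7 were lower and the others did not pass. All 7 fibroblast and myofibroblast markers were higher, at 1350 to 1847 FPKM against 144.0 to 232.6. Every measured marker of vessels (6), pericytes (4), macrophages (6) and neutrophils (5) was also higher. In bulk RNA, fewer cells of a type and less RNA per cell cannot be told apart, and the part of these shifts in the results below was not tested. In 3 libraries, markers of neighbouring tissue stood apart. The lens markers summed to 58.9 FPKM in PBS 1 against 2.74 to 4.71 in the others. The melanocyte and iris markers summed to 104.8 in BAC 4 and 49.3 in PBS 4, against 2.70 to 15.4 elsewhere.

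Of the 41 members with a mean of at least 0.5 FPKM, 16 were higher with BAC and 14 lower at an adjusted p of 0.05 (limma on log2(FPKM + 1), Benjamini-Hochberg over 12967 genes). These counts include Sfrp4, Rspo1 and Lgr6 as higher and Dkk1 as lower, which passed the filter through 1 group only, so their direction was fixed. Among all genes tested 45.1% were higher and 22.6% lower, 67.6% in either direction, and the share of members changed in either direction, 30 of 41, is near that background. Over the 41 members the median change was -0.04 log2, against 0.19 over all genes. Under median-of-ratios scaling 11 members were higher and 19 lower, and under quantile normalization 9 and 21. For all genes the calls were 5845 higher and 2926 lower as deposited, 4467 and 4229 with median-of-ratios scaling and 3946 and 4967 with quantile normalization, while the median change moved from 0.19 to 0.01 and -0.08. A called change of at least 1 log2 with a mean of at least 2 FPKM in the higher group was found for 12 members. These are Wnt2, Wnt3a, Wnt4, Wnt6, Wnt7b, Fzd1, Fzd2, Fzd5, Ror2, Sfrp1, Sfrp4 and Tcf7. All 12 kept their call and direction under each of the 20 alternative settings that tested them. They were picked from these same data for large changes, and the direction of Sfrp4 was fixed by the filter. Keeping the call thus speaks only to the processing. Among all genes, called changes of at least 1 log2 were 16.5% higher and 6.34% lower, without the 2 FPKM condition. Of the 44 members, 13 were higher in every BAC sample than in any PBS sample and 13 lower in every one, the 3 untested ones included, where 42.6% and 20.9% of all genes tested were.

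**Figure D1:**
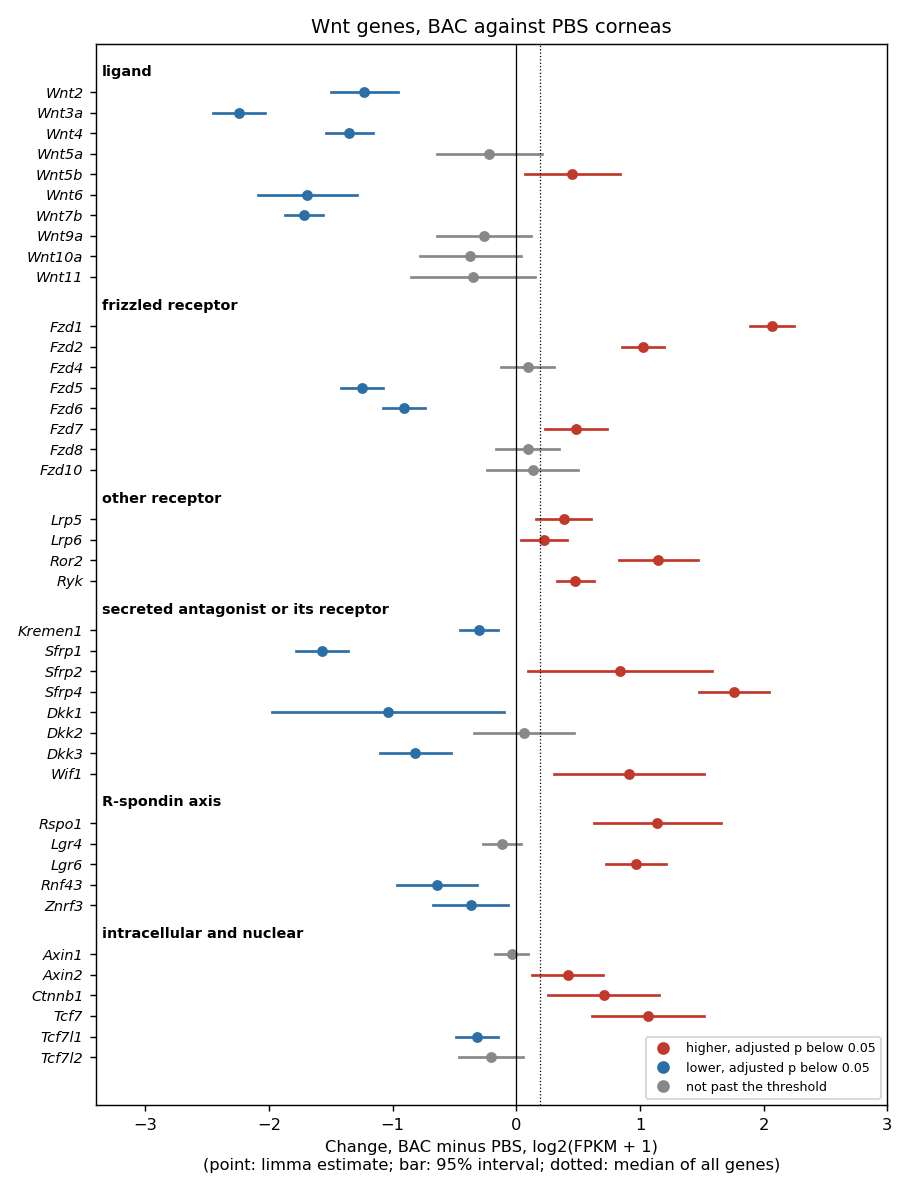
Change of each of the 41 tested members, BAC minus PBS, on the log2(FPKM + 1) scale, grouped by role. Points are limma estimates with 95% intervals, red and blue mark adjusted p below 0.05 and grey the rest, and the dotted line is the median of all genes at 0.19. Wnt3a at -2.25 is the leftmost and Fzd1 at 2.07 the rightmost.

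Of the 10 ligand genes tested, 5 fell (Wnt2, Wnt3a, Wnt4, Wnt6, Wnt7b), 1 rose (Wnt5b) and 4 did not pass (Wnt5a, Wnt9a, Wnt10a, Wnt11), with a median change of -0.80. Here and for each role below, the shares over all genes tested were 45.1% higher and 22.6% lower. Ligand genes summed to 71.5 ± 6.68 FPKM in BAC samples (62.1 to 77.9) and to 153.7 ± 4.49 in PBS samples (147.8 to 158.7, SD, n = 4). The 2 ranges were well apart.

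Wnt4 was the most abundant ligand gene in both groups, at 39.6% of summed ligand FPKM with BAC and 47.7% with PBS. Its FPKM was 31.1, 30.9, 25.5 and 25.5 in the 4 BAC samples and 67.7, 76.4, 76.0 and 73.3 in the PBS samples. All BAC values lay below all PBS values. The change was -1.35 ± 0.08 log2 (SE, adjusted p = 8.45e-07, limma).

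Wnt3a, an activator of β-catenin signalling, fell furthest. It was 0.509, 0.754, 0.590 and 0.687 FPKM with BAC and 5.74, 6.70, 7.18 and 7.46 with PBS. The group means of 0.635 ± 0.108 and 6.77 ± 0.756 FPKM differ 10.7-fold, and the groups did not overlap. On the log2 scale the change was -2.25 ± 0.09 (SE, adjusted p = 7.55e-08, limma). Wnt7b, which in mice drives the regression of fetal eye vessels, was 6.48, 6.66, 5.77 and 6.11 FPKM with BAC and 22.0, 22.7, 24.8 and 22.0 with PBS. Every BAC sample was far below every PBS sample, with a change of -1.72 ± 0.07 (SE, adjusted p = 5.99e-08, limma).

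Wnt6 was 1.03, 0.665, 0.229 and 1.36 FPKM with BAC and 5.09, 4.44, 4.66 and 4.64 with PBS. The BAC values were uneven but all lay below the tight PBS values (-1.69 ± 0.18 log2, SE, adjusted p = 2.59e-05, limma). Wnt2, a β-catenin activating ligand, was 2.67, 3.41, 2.15 and 2.75 FPKM against 8.29, 8.83, 6.62 and 7.29. Its groups did not overlap either (-1.23 ± 0.12, SE, adjusted p = 1.49e-05, limma).

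Wnt5b, a ligand known for β-catenin-independent signalling, was 2.28, 3.43, 2.69 and 2.18 FPKM with BAC and 2.32, 1.15, 1.21 and 2.07 with PBS. The groups overlapped, and its 0.45 log2 change only just passed (adjusted p = 0.0386, limma). The call was lost without any 1 of BAC 2, BAC 3, PBS 2 or PBS 3 (adjusted p of 0.0762 to 0.102, limma) and under both rescalings, with estimates of 0.31 (median-of-ratios) and -0.02 (quantile). Without BAC 4, PBS 1 and PBS 4 the estimate was 0.79. Its relative Wnt5a was 6.86 ± 1.40 against 8.24 ± 2.24 FPKM (adjusted p = 0.323, limma, 95% interval -0.64 to 0.20 log2). Wnt9a, Wnt10a and Wnt11 had estimates of -0.26, -0.37 and -0.35 log2 with intervals that reach above 0, and overlapping groups. Wnt2b was below the filter and not tested. It was 0.696 to 0.906 FPKM with BAC, and with PBS it was listed at 0 in 2 samples and at 0.0638 and 0.111 in the others.

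**Figure D2:**
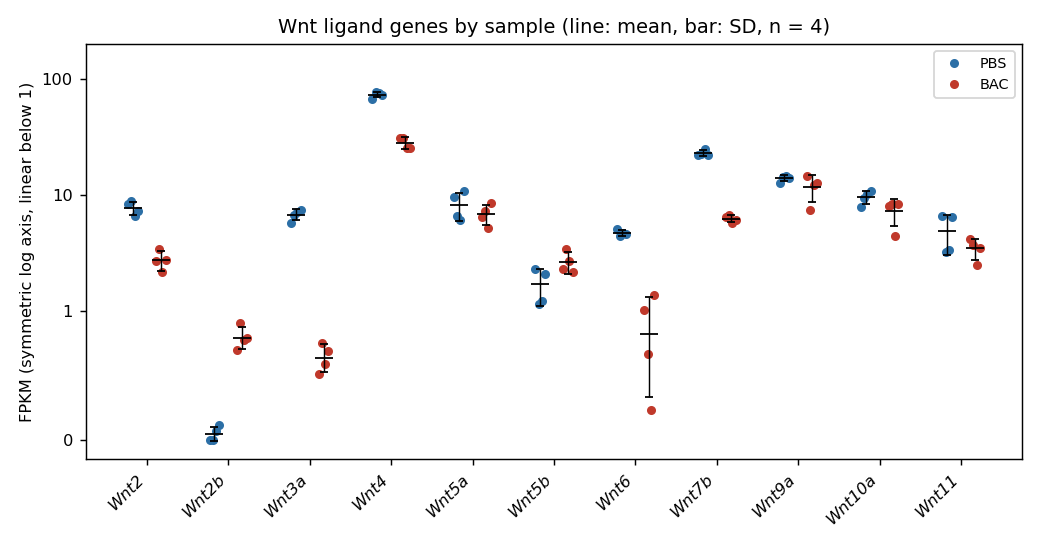
FPKM of the 11 ligand genes in each sample, with PBS in blue and BAC in red, on an axis that is linear below 1 and logarithmic above. Black lines are means and bars SD (n = 4). Wnt4 sits highest at 25.5 to 31.1 with BAC and 67.7 to 76.4 with PBS, and Wnt5a and Wnt9a overlap between groups.

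Ligand genes formed 2 neighbouring pairs in the genome (GRCm38). Wnt6 ends 6.193 kb before Wnt10a on chromosome 1, both on the plus strand, and Wnt3a lies 16.175 kb from Wnt9a on chromosome 11, on opposite strands. In each pair 1 gene fell, Wnt6 and Wnt3a, and the neighbour did not pass with FPKM as deposited. Under median-of-ratios scaling both neighbours passed as lower, Wnt10a at -0.57 log2 (adjusted p = 0.0156, limma) and Wnt9a at -0.46 (adjusted p = 0.0379, limma), and Wnt10a also did under quantile normalization. The difference of change between neighbours was not tested.

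The frizzled receptor genes changed in make-up more than in sum. Of 8 tested, 3 rose (Fzd1, Fzd2, Fzd7), 2 fell (Fzd5, Fzd6) and 3 did not pass (Fzd4, Fzd8, Fzd10). They summed to 87.1 ± 2.72 FPKM in BAC samples and 80.8 ± 2.86 in PBS samples (SD, n = 4), with overlapping ranges of 83.1 to 88.9 and 77.9 to 84.5.

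Fzd1 was 34.7, 30.6, 32.7 and 35.1 FPKM with BAC and 8.04, 6.49, 6.69 and 7.55 with PBS. The groups were far apart, the means differing 4.63-fold, with a change of 2.07 ± 0.08 log2 (SE, adjusted p = 5.78e-08, limma). Fzd6, the frizzled known in mice for hair orientation, was 25.1, 26.3, 21.4 and 24.3 FPKM with BAC and 44.9, 48.0, 43.8 and 48.9 with PBS, again with no overlap (-0.91 log2, adjusted p = 4.63e-06, limma). Fzd1 made up 38.2% of summed frizzled FPKM with BAC and 8.91% with PBS, and Fzd6 27.9% and 57.4%. The ratio of Fzd1 to Fzd6 within a sample was 1.16 to 1.53 with BAC and 0.135 to 0.179 with PBS.

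Fzd5, which has a role in eye development, was 3.005, 3.15, 2.92 and 2.74 FPKM with BAC and 7.73, 9.14, 8.90 and 7.94 with PBS. All BAC values were under all PBS values (-1.25 ± 0.07 log2, SE, adjusted p = 6.53e-07, limma). Fzd2 was 7.14, 7.20, 7.52 and 6.44 FPKM with BAC and 3.16, 2.73, 2.79 and 3.24 with PBS. It was higher in every BAC sample (1.02 ± 0.08, SE, adjusted p = 2.41e-06, limma). Fzd7 was 8.53 ± 1.25 against 5.82 ± 0.705 FPKM (0.48 log2, adjusted p = 0.00368, limma), and without BAC 4, PBS 1 and PBS 4 its adjusted p was 0.0571. Fzd4, the norrin receptor of retinal vessels, Fzd8 and Fzd10 had changes of 0.09, 0.09 and 0.13 log2 with overlapping groups. These 3 turned to negative estimates under median-of-ratios scaling and quantile normalization, and Fzd8 passed as lower under the latter (-0.35 log2, adjusted p = 0.019, limma).

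**Figure D3:**
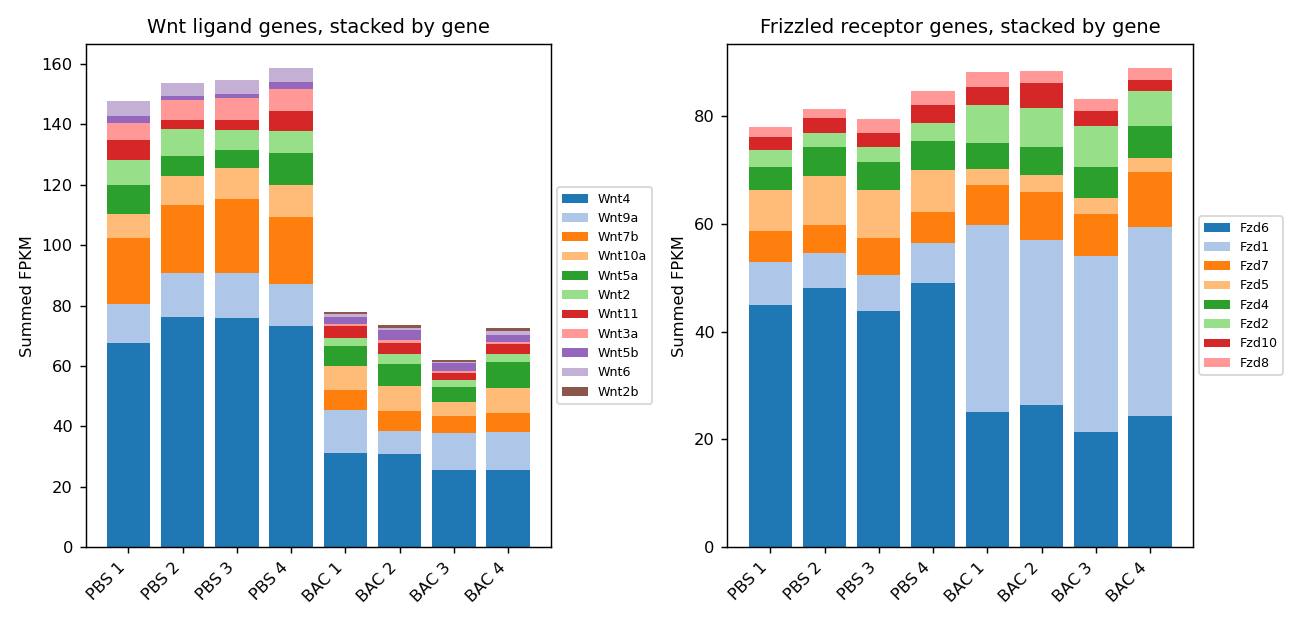
Summed FPKM of ligand genes (left) and frizzled genes (right) in each sample, stacked by gene. The ligand sum is 62.1 to 77.9 in BAC and 147.8 to 158.7 in PBS samples, whereas the frizzled sums are 83.1 to 88.9 and 77.9 to 84.5 and the Fzd1 block is larger in BAC.

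All 4 of the other receptors rose, where 45.1% of all genes tested did. Ror2, a receptor for Wnt5a, was 2.88, 3.02, 2.58 and 2.59 FPKM with BAC and 0.885, 0.290, 0.632 and 1.09 with PBS. The groups did not overlap (1.15 ± 0.14 log2, SE, adjusted p = 7.3e-05, limma). Ryk, a receptor of the tyrosine kinase-like family, was 33.4 ± 1.42 against 23.7 ± 1.73 FPKM with no overlap (0.48 log2, adjusted p = 0.000168, limma). The β-catenin co-receptors changed less. Lrp5 was 7.57 ± 0.921 against 5.56 ± 0.518 FPKM (0.38 log2, adjusted p = 0.00654, limma) and Lrp6 8.34 ± 0.671 against 7.02 ± 0.627 (0.22 log2, adjusted p = 0.0378, limma). Lrp5 no longer passed without BAC 4, PBS 1 and PBS 4 (adjusted p = 0.0796, limma), nor under median-of-ratios scaling (0.19 log2, adjusted p = 0.097) or quantile normalization (0.13 log2, adjusted p = 0.244). Lrp6 was lost without any 1 of BAC 2, BAC 4, PBS 1, PBS 2 or PBS 4 (adjusted p of 0.0589 to 0.0927, limma), and its estimate was -0.0032 log2 under quantile normalization.

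The secreted antagonists and Kremen1 moved in both directions: 3 rose (Sfrp2, Sfrp4, Wif1), 4 fell (Sfrp1, Dkk1, Dkk3, Kremen1) and Dkk2 did not pass. Sfrp1 was 16.2, 17.3, 17.7 and 16.6 FPKM with BAC and 43.1, 52.5, 58.9 and 56.3 with PBS. The BAC values were all below the PBS values (-1.57 ± 0.09 log2, SE, adjusted p = 6.67e-07, limma). Sfrp4 went the other way, at 2.13, 2.84, 3.27 and 1.91 FPKM with BAC and, with PBS, listed at 0 in PBS 1 and PBS 3 and at 0.0408 and 0.0843 in PBS 2 and PBS 4. It passed the filter through the BAC group alone, which fixed its direction (1.76 ± 0.12 log2, SE, adjusted p = 1.78e-06, limma). Fibroblast, pericyte, vessel, macrophage, neutrophil and conjunctival markers were all higher in the same BAC samples, as given above. The part of any of these in the Sfrp4 result was not tested.

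Sfrp2 was 8.19, 10.5, 18.4 and 9.41 FPKM with BAC and 3.93, 3.37, 7.83 and 9.88 with PBS. PBS 4 lay above 2 BAC samples, and the 0.84 log2 change (adjusted p = 0.0459, limma) was lost without any 1 of BAC 2, BAC 3, BAC 4, PBS 1 or PBS 2 (adjusted p of 0.0594 to 0.117, limma). Wif1 was 1.21, 3.38, 2.24 and 4.52 FPKM with BAC and 0.528, 0.765, 1.35 and 1.21 with PBS. The groups overlapped and BAC 4, 1 of the libraries rich in pigment markers, was highest (0.91 log2, adjusted p = 0.0138, limma). Without BAC 4, PBS 1 and PBS 4 its adjusted p was 0.114 (limma), and under quantile normalization the change was 0.42 log2 (adjusted p = 0.204, limma).

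Dkk1 was 0.205, 0.161, 0 and 0.0363 FPKM with BAC and 4.84, 1.35, 0.558 and 0.215 with PBS. PBS 1, the library with lens markers, made up most of the PBS mean, which was 1.74 FPKM with it and 0.708 without it. The change of -1.04 log2 (adjusted p = 0.0495, limma) was lost without any 1 BAC sample or without PBS 2 (adjusted p of 0.0746 to 0.0985, limma). Without PBS 1 the gene fell below the filter. Dkk3 was 59.2 ± 8.50 against 105.2 ± 16.4 FPKM, with no overlap (-0.82 log2, adjusted p = 0.000349, limma). Kremen1 was 12.9 ± 0.626 against 16.2 ± 1.16 FPKM (-0.30 log2, adjusted p = 0.00359, limma). Dkk2 was 27.3 ± 2.69 with BAC and 26.8 ± 7.25 with PBS (0.06 log2, 95% interval -0.35 to 0.47), and its sign turned under both rescalings.

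Of the R-spondin axis, 5 of 7 genes were tested, of which Rspo1 and Lgr6 rose, Rnf43 and Znrf3 fell and Lgr4 did not pass. Rspo1 was 1.68, 1.52, 1.04 and 2.80 FPKM with BAC and 0.788, 0, 0.0504 and 0.182 with PBS. Its BAC values were all higher, and PBS 1 held most of the PBS mean, which was 0.255 FPKM with it and 0.0774 without (1.14 log2, adjusted p = 0.00161, limma). Lgr6 was 1.40, 1.02, 0.753 and 1.25 FPKM with BAC and 0.0541, 0.122, 0.0805 and 0.0199 with PBS, with no overlap (0.97 log2, adjusted p = 3.36e-05, limma). Sfrp4, Rspo1, Lgr6 and Dkk1 had a mean under the 0.5 filter in 1 group, so passing it fixed the direction of these 4 genes. Rspo3 and Lgr5, a stem cell marker of the mouse intestine, were too low to test. Rspo3 was 0.513 to 0.890 FPKM with BAC and 0.0211 to 0.0836 with PBS, and Lgr5 was 0.484 to 0.767 and 0 to 0.0622.

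The ligases were lower. Rnf43 was 1.18 ± 0.457 against 2.36 ± 0.328 FPKM with no overlap (-0.64 log2, adjusted p = 0.00324, limma). Znrf3 was 1.72 ± 0.414 against 2.52 ± 0.523 FPKM with overlapping groups (-0.37 log2, adjusted p = 0.0353, limma) and was lost without any 1 of BAC 1, BAC 3, BAC 4, PBS 1 or PBS 3 (adjusted p of 0.0679 to 0.0916, limma). Lgr4, the Lgr gene with the highest FPKM, was 14.9 ± 1.03 against 16.3 ± 0.896 FPKM (adjusted p = 0.165, limma), and passed as lower under both rescalings (-0.32 and -0.24 log2, adjusted p of 0.00147 and 0.00907, limma).

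**Figure D4:**
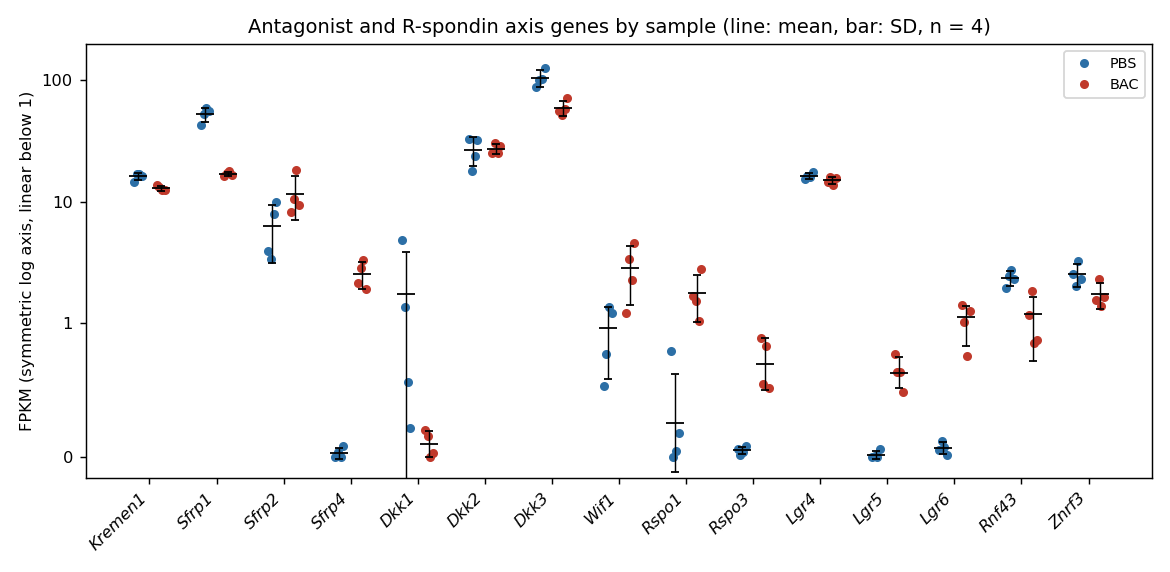
FPKM of the antagonist and R-spondin axis genes in each sample, with PBS in blue and BAC in red, on an axis that is linear below 1 and logarithmic above. Black lines are means and bars SD (n = 4). Sfrp1 is 16.2 to 17.7 with BAC against 43.1 to 58.9, Sfrp4 lies near 0 with PBS, and the PBS values of Dkk1 run from 0.215 to 4.84.

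Among intracellular members 3 rose (Tcf7, Ctnnb1, Axin2), Tcf7l1 fell and Axin1 and Tcf7l2 did not pass. Tcf7, a partner of β-catenin that T cells also use, was 3.55, 1.34, 3.10 and 3.57 FPKM with BAC and 0.941, 0.708, 0.812 and 0.732 with PBS. BAC 2 was well below the other BAC samples but above every PBS sample (1.07 ± 0.20 log2, SE, adjusted p = 0.00116, limma). Its transcripts also differed there: Tcf7-201 was listed at 0 in BAC 2 and at 3.09 to 3.58 FPKM in the other BAC samples. Tcf7-202 was 2.02 FPKM in BAC 2 and 0.286 to 0.359 in the others. Tcf7-201 did not pass and Tcf7-202 was below the filter. The T cell and natural killer markers summed to 3.38 to 5.27 FPKM with BAC and to 0 to 0.0723 with PBS, where Cd3d and Nkg7 were at 0 in all 4 samples. In BAC 1 to BAC 4 these markers summed to 4.97, 5.27, 3.38 and 3.96 FPKM, highest in BAC 2, where Tcf7 was lowest of the BAC samples. Their part in the Tcf7 result was not tested.

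Ctnnb1, which encodes β-catenin, was 89.6, 134.9, 126.5 and 125.6 FPKM with BAC and 60.9, 63.7, 62.9 and 108.6 with PBS. PBS 4 stood with the BAC samples, above BAC 1, so the groups overlapped (0.71 log2, adjusted p = 0.011, limma). Without PBS 4 the change was 0.90 log2 (adjusted p = 0.000441, limma), the largest estimate under the 20 alternatives. The smallest was 0.49 log2, and the adjusted p reached 0.0489 (limma). None of the 5 listed Ctnnb1 transcripts passed. Axin2, a β-catenin target gene and feedback inhibitor, was 3.07, 2.22, 2.50 and 3.17 FPKM with BAC and 2.29, 1.45, 2.02 and 1.49 with PBS. BAC 2 fell within the PBS range (0.41 log2, adjusted p = 0.017, limma). The call was lost without BAC 4 and PBS 4 (adjusted p = 0.102, limma), and the estimate was -0.03 under quantile normalization. Tcf7l1, often a repressor of target genes, was 5.66 ± 0.179 against 7.33 ± 0.695 FPKM with no overlap (-0.32 log2, adjusted p = 0.00391, limma). Axin1 was 11.9 ± 0.327 against 12.3 ± 0.580 FPKM (-0.04 log2, 95% interval -0.17 to 0.09). Tcf7l2 was 1.44 ± 0.254 against 1.82 ± 0.331 FPKM (adjusted p = 0.144, limma), and passed as lower without PBS 1 (adjusted p = 0.0341, limma), under median-of-ratios scaling (-0.34 log2, adjusted p = 0.0255) and under quantile normalization (-0.69 log2, adjusted p = 0.000552). Axin1 passed as lower under both rescalings too (-0.24 and -0.19 log2, adjusted p of 0.00599 and 0.0166, limma).

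**Figure D5:**
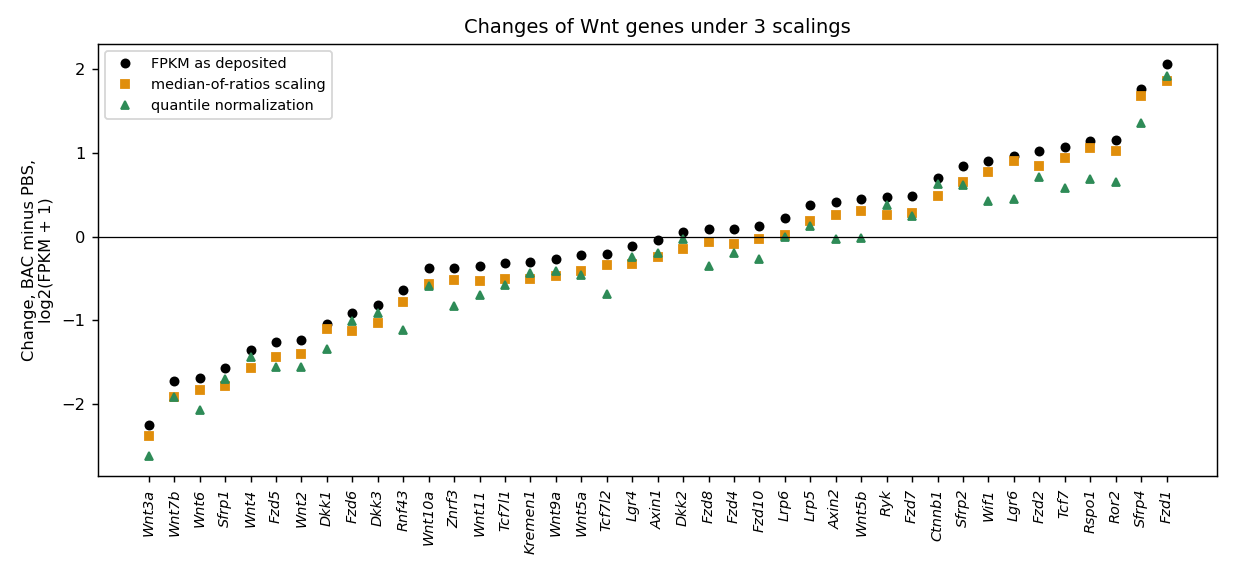
Change of each tested member on the log2(FPKM + 1) scale with FPKM as deposited (circles), median-of-ratios scaling (squares) and quantile normalization (triangles). The outer genes keep their sign, from Wnt3a to Dkk3 below 0 and from Ror2 to Fzd1 above it, whereas genes near 0 such as Fzd4, Fzd8 and Fzd10 turn.

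Beyond these members, 83 further genes of the pathway were listed, of which 72 were in the table and tested: 33 rose and 17 fell, with a median of 0.22 log2, against 45.1% and 22.6% of all genes. Further receptors and antagonists had 5 of 6 higher and none lower, and common target genes 8 of 11 higher and 3 lower. Cytoplasmic signalling had 4 higher and 6 lower of 21. Of the targets, Wisp1 (Ccn4), which encodes a matricellular protein, was 12.7 to 17.97 FPKM with BAC and 1.12 to 1.73 with PBS (2.64 log2), and Vcan, a matrix proteoglycan, was 5.84 to 13.1 against 0.0308 to 0.369 (2.95 log2). Fosl1, a component of the AP-1 factor, was 3.66 to 5.01 FPKM against 0 to 0.114 (2.26 log2). The polarity co-receptor Ptk7 was 25.5 to 29.3 against 13.9 to 14.98 (0.88 log2) and the co-repressor Tle1 2.40 to 2.54 against 0.349 to 0.719 (1.23 log2).

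On the lower side Gpc3, a surface glypican, was 2.48 to 5.47 FPKM with BAC and 46.7 to 57.6 with PBS (-3.51 log2). Id2, an inhibitor of helix-loop-helix factors, was 24.3 to 33.4 against 103.3 to 121.8 (-2.01 log2). Dact2, which regulates dishevelled, changed by -1.41, the co-repressor Tle4 by -1.45 and Prickle2, a planar polarity protein, by -1.24 log2. The groups of all 10 named genes were separate, and each passed (limma, adjusted p of 9.70e-08 to 2.50e-06). For 3 of them, Fosl1, Vcan and Tle1, the PBS mean was under the 0.5 filter, so passing it fixed their direction. Fibroblast markers were higher and corneal epithelial markers lower in the same BAC samples, and their part was not tested.

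The transcript table listed 70 transcripts of the 44 genes, of which 64 were tested, with 10 higher and 11 lower. Among all 23349 transcripts tested, 23.0% were higher and 11.6% lower, 34.6% in either direction. For 27 genes only 1 transcript was listed. Every transcript called in a gene that was also called moved in the gene's direction. All of these that were higher, and most that were lower, were the only transcript listed for their gene. A sole transcript and its gene are largely 1 measurement, so this agreement was mostly fixed in advance. The other 2 called transcripts were higher, in genes below the gene filter. They were Lgr5-201 (1.08 log2, adjusted p = 0.000567, limma) and Wnt2b-201 (0.90 log2, adjusted p = 0.000636, limma). Both passed the filter through the BAC group alone, which fixed their direction. The same held for Sfrp4-201, Lgr6-201 and Rspo1-201 among the higher transcripts, with PBS means of 0.0519, 0.0710 and 0.254 FPKM. Transcript sums could exceed the gene value, as for Lgr5 in BAC 1 at 200.1%. The transcripts listed for Ctnnb1 summed to 97.9% of its gene FPKM in BAC 2 but to 21.5% in BAC 3 and 28.4% in PBS 4, so those transcript values do not cover the gene evenly between samples.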

How the data were processed

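Corneal RNA was extracted with Trizol and made into libraries with a KAPA stranded kit, per the labels' protocols. The authors deposited FPKM for genes and transcripts. The submitters' processing notes name HISAT2 2.1.0 and StringTie 1.3.3 as tools and GRCm38 as the build, without saying how each was used. Groups and replicate numbers came from the sample titles. A gene was kept where its FPKM averaged 0.5 or more across the 8 samples. The test was limma 3.58.1 (R 4.3.3) on log2 of FPKM plus a pseudocount of 1, with a trended prior, two-sided, with Benjamini-Hochberg adjustment over all genes tested and a threshold of 0.05. Log2 changes are on that scale, which understates the change of low genes, while folds are ratios of mean FPKM. Transcripts were tested likewise. The members and lists were chosen with earlier results of these data known, and marker and pathway lists describe and assign no cell to a type.

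Depth is unknown: 20.0% to 48.7% of the 300 lowest values per sample came within 0.05 of whole multiples of a best-fitting step, so whole reads were not recovered. An exact 0 is described as listed at 0. Called members with a log2 change of at least 1 and a mean of at least 2 FPKM were given in every sample. That mean is of the higher group, and some other members were also given so. The 5 other pathway genes with the smallest adjusted p in each direction were named. The test was run on simulated data before use. Figures used matplotlib 3.10.9 in Python 3.11.15. Promoters are RefSeq's. Alternatives are given in the closing section. Count-based tests were not run, since no counts were used here.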

Additional observations from a re-analysis of the deposited data

Results flagged for a closer look

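In 5 of the 88 groups of member values, 4 samples each, 1 sample lay far from the other 3 by Dixon's criterion, where chance flags about 1 in 20. Wnt10a was low in BAC 3, at 4.44 FPKM against 7.98 to 8.36 in the other BAC samples. In PBS 1, Fzd4 was low at 4.13 FPKM against 5.26 to 5.36 and Lrp5 was low at 4.79 against 5.78 to 5.86. In PBS 4, Lgr5 was high at 0.0622 FPKM against 0 to 0.00984, and Ctnnb1 was high at 108.6 against 60.9 to 63.7. PBS 1 is the library with lens markers and PBS 4 a library with pigment markers, and their part in these values was not tested.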

How the results depend on the processing

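Each result was recomputed under 20 alternatives, 2 of them (leaving out BAC 4 and PBS 4, and also PBS 1) chosen after the libraries that stand apart had been seen. Of the 30 called members 21 kept their call under every alternative that tested them, 9 lost it at least once and 3 turned. The number of members called higher, 16, became 10 with a filter at a mean of 2 FPKM, which tests fewer members, 9 under quantile normalization and 10 without BAC 4, PBS 1 and PBS 4; the cause of the last 2 was not tested. With 1 sample left out, 8287 to 8541 genes were called, 13 to 15 members higher and 12 to 14 lower, 49 to 52 other pathway genes and 17 to 20 member transcripts. Estimates that turned were, under quantile normalization, Wnt5b at -0.0156, Fzd4 at -0.193, Fzd8 at -0.346, Fzd10 at -0.261, Lrp6 at -0.0032, Dkk2 at -0.0321 and Axin2 at -0.0295, and under median-of-ratios scaling Fzd4 at -0.0916, Fzd8 at -0.0615, Fzd10 at -0.0314 and Dkk2 at -0.15. Without BAC 4, PBS 1 and PBS 4 Wnt11 was 0.0502 and Fzd4 -0.00641. With 1 sample left out Fzd10 ran from -0.0144 (without BAC 2) to 0.254 (without BAC 4) and Dkk2 from -0.111 (without PBS 2) to 0.173 (without PBS 1). The cause of these turns was not tested. Calls gained, all as lower, were Wnt9a, Wnt10a, Lgr4, Axin1 and Tcf7l2 under median-of-ratios scaling and Wnt5a, Wnt10a, Wnt11, Fzd8, Lgr4, Axin1 and Tcf7l2 under quantile normalization. Calls lost were Wnt5b, Lrp5, Lrp6, Sfrp2 and Axin2 under both, and Fzd7 and Wif1 under quantile normalization.

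The replicate numbers did not meet the criterion for pairing, a correlation over 0.1 in every pair. Deviations of same-numbered samples correlated at 0.053, 0.109, 0.121 and 0.114. As a hint from the data only, BAC 2, BAC 3 and BAC 4 each correlated best with their own number, while BAC 1 correlated better with PBS 2 (0.104). Seen from the other group, every PBS sample correlated best with its own number. With the replicate block 8519 genes, 14 members higher and 13 lower, 49 other pathway genes and 18 member transcripts were called, the members no longer called being Wnt5b, Lrp6 and Znrf3. With depth unknown, no counting error can be given for members at low FPKM.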

Other observations

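Transcripts of some members were listed unevenly between samples of 1 group. Lrp5-201 was listed at 0 FPKM in PBS 3 and at 8.85 to 10.8 in the other PBS samples, although the gene was 5.86 FPKM there. Axin1-202 was listed at 0 in BAC 1, BAC 4, PBS 2 and PBS 3 and at 4.78 to 6.08 in the other 4 samples. Ryk-201 was 35.0 to 37.0 FPKM in BAC 1 and BAC 4 but 10.2 to 12.01 in BAC 2 and BAC 3, while Ryk-203 ran the other way, at 15.8 to 17.5 and 45.4 to 51.8. The gene value of Ryk was 32.1 to 35.4 FPKM in all 4 BAC samples.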
